A study of Mus musculus and synthetic construct with 3 samples.

Results

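Comp, the thrombospondins Thbs1, Thbs2 and Thbs4, and the cartilage-type matrix genes Cilp, Acan, Vcan and Sox9 were followed through spatial transcriptomes of the suprarenal abdominal aorta. They are 8 genes chosen by symbol out of 32285 genes in the matrix, and all 8 were found. They were chosen with the difference between aneurysm and control in these same samples known, so their values in that comparison are given as a description. In Seq-Scope, a tissue section is laid on a surface of barcoded oligonucleotides whose places have been read beforehand; poly(A) RNA is captured there, and each molecule is counted once by its unique molecular identifier (UMI). The mice were Apoe-/- males, 16 weeks old by the labels, on a normal diet, and all carried the Apoe deletion, controls included. AngII (angiotensin II, labelled 1000 ng/ml) or saline was delivered by minipump for 4 weeks. The study's methods instead give the AngII dose per body weight and minute, and a younger age at pump implantation, so the labelled age and dose are uncertain. The aneurysm group (AAA) was 3 AngII-infused mice that had developed an aneurysm, and the control group was 3 saline-infused mice, so infusion and aneurysm cannot be told apart here. From 10 control and 10 AAA sections of 10 µm, all counts inside the section outlines on lane 2 of the array were summed per mouse, and the mouse was the replicate.

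Thrombospondins are large secreted glycoproteins that bind collagens, calcium, integrins and growth factors. Thbs1 and Thbs2 assemble as trimers and are best known for the activation of latent TGF-β (Thbs1) and the restraint of vessel growth. Comp, cartilage oligomeric matrix protein, and Thbs4 assemble as pentamers. Comp is abundant in cartilage and tendon, binds fibrillar collagens, and is also made by vascular smooth muscle cells. Aggrecan (Acan) and versican (Vcan) are hyaluronan-binding proteoglycans that take up water in cartilage and in the vessel wall, Cilp encodes cartilage intermediate layer protein, and Sox9 is the transcription factor that directs chondrocyte differentiation.

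The thrombospondins are related genes, so the coding sequences of GENCODE M21 (GRCm38) were compared to see how far a short read could fit more than 1 of them. Among the 10 pairs formed by Comp, Thbs1, Thbs2, Thbs3 and Thbs4, the longest identical run was 26 bases, reached by Comp with Thbs4 and by Thbs1 with Thbs2, and no pair shared a run of 30 bases. Acan and Vcan shared at most 20. Untranslated regions and inexact matches were not compared, so these runs need not be where counts are most easily confused. The longest runs are shown with 20 flanking coding bases on each side, and capitals mark the identical bases.
Comp: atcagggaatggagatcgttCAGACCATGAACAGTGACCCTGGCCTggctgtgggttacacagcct
Thbs4: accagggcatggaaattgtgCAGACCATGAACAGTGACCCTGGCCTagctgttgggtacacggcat
Thbs1: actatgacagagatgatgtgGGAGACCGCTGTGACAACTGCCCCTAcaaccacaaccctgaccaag
Thbs2: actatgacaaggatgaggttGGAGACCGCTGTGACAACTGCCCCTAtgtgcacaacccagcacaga
The Comp stretch is spliced coding sequence of exons 14 to 16 between chr8:70379568-70380116 on the plus strand, and that of Thbs4 is spliced from exons 17 to 19 between chr13:92755274-92756412 on the minus strand. The Thbs1 stretch lies in coding exon 15 at chr2:118120873-118120938 on the plus strand, and the Thbs2 stretch in coding exon 15 at chr17:14676264-14676329 on the minus strand. Bases that differ appear directly outside each run, so a read that extends past it can be placed in 1 gene.

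The genes differ widely in size on GRCm38. Comp, with 19 exons in its longest coding transcript, covers 8509 bases at chr8:70373558-70382066. Thbs1 (22 exons) lies at chr2:118111876-118127133, Thbs2 (22 exons) at chr17:14665500-14694235 and Thbs4 (22 exons) at chr13:92751590-92794818. Cilp (10 exons) lies at chr9:65265180-65280605, Acan (17 exons) at chr7:79053483-79115099, Vcan (15 exons) at chr13:89655312-89742509 and Sox9 (3 exons) at chr11:112782224-112787760. Acan covers 61617 bases and Vcan 87198, most of it intron, against 5537 for Sox9.

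The 3 control mice held 147620 to 191724 exonic UMIs and the 3 AAA mice 444755 to 956560, so values in controls rest on fewer molecules. Levels are in CPM, that is, a gene's UMIs for every 1000000 exonic UMIs of all genes in the same mouse or area, and they are compared between mice, not between genes of different length. RNA lay also outside the tissue. The surface between the sections carried 14230 exonic UMIs per mm2, against 53410 within them, and there Comp made up 278.5 CPM, near the 298.8 within all sections together. In the controls, 17.7% to 22.6% of UMIs lay in hexagons of fewer than 10 UMIs (the surface was divided into hexagons with sides of 12 µm), against 6.69% to 9.69% in AAA mice. How much of the signal in control sections came from such displaced RNA was not tested. Smooth muscle, fibroblast and macrophage markers were present in every mouse. Contractile markers summed to 15720 to 20860 CPM in controls and 10780 to 13100 in AAA mice, collagen fibroblast markers to 9428 to 10170 against 11610 to 15470, and macrophage markers to 2614 to 3056 against 4421 to 6293. Of these 8, 8 and 9 markers none was at 0 in either group. The sections also held liver RNA. Its 6 markers, Alb among them, summed to 16450 to 20610 CPM in controls and 16290 to 17660 in AAA mice. Not all counts are therefore from the aortic wall, and the source of the liver RNA was not tested. In sums over sections, more cells of a type and more RNA per cell cannot be told apart. The labels put no section in a group; conditions came from the section outlines in the study's published image.

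Comp was higher in every AAA mouse than in every control mouse. Controls 1, 2 and 3 held 16, 24 and 23 Comp UMIs and AAA mice 1, 2 and 3 held 355, 159 and 192. As levels these were 95.5, 163 and 120 CPM in the controls and 371, 358 and 289 in the AAA mice. The groups did not overlap, and the lowest AAA mouse was well above the highest control. The mean was 126 ± 34.0 CPM in controls and 339 ± 44.3 in AAA (SD, n = 3 each), 2.69 times as high, and the fitted log2 fold change was 1.45 ± 0.19 (SE, edgeR quasi-likelihood fit over 6315 genes). Since this contrast chose the genes, no test is attached to it.

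**Figure D1:**
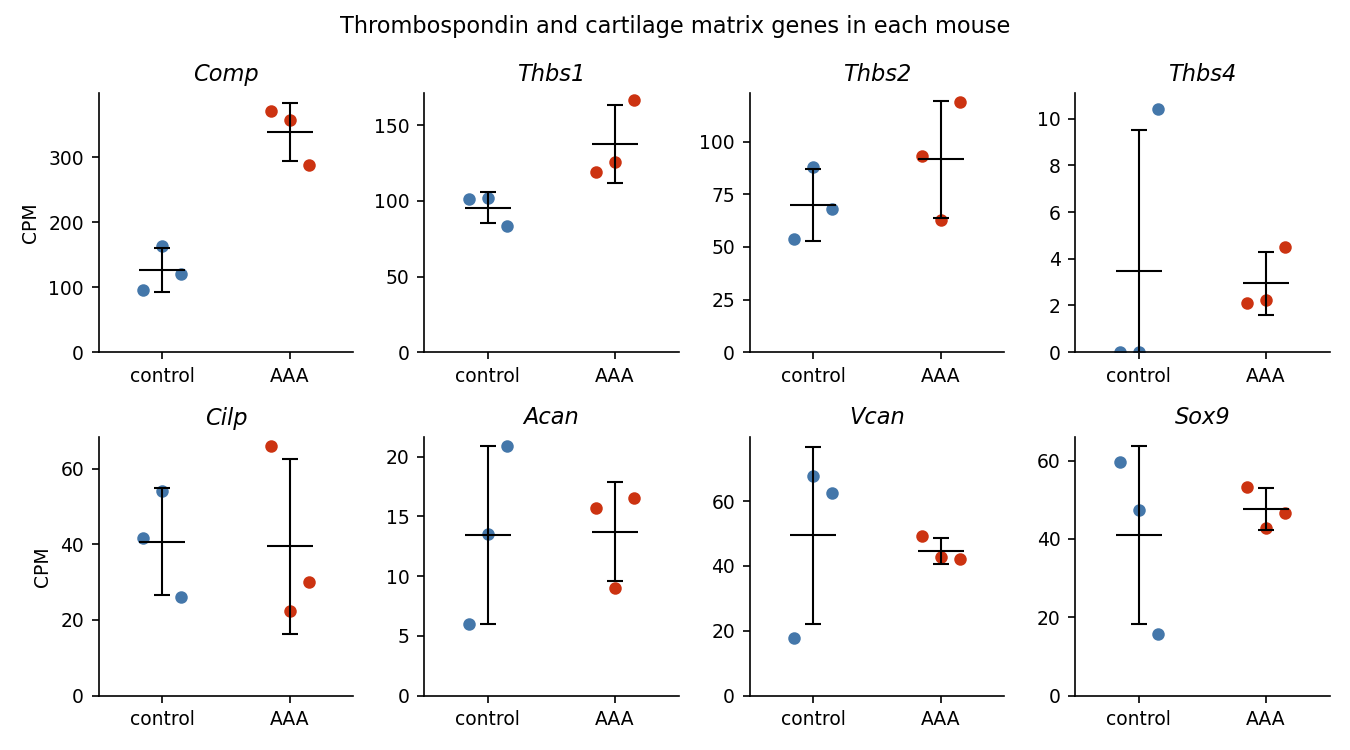
Level in CPM (y axis, each panel with its own scale from 0) of the 8 genes in 3 control and 3 AAA mice; points are mice, left to right mouse 1 to 3, and the bar and whiskers are mean ± SD. Comp and Thbs1 are the panels in which all AAA points lie above all control points; in the other 6 the groups overlap.

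The difference in Comp was present in single sections. The 10 AAA sections ran from 255 to 400 Comp CPM and the 10 control sections from 26.2 to 240, so that no control section reached the lowest AAA section. Control sections were the more scattered, with 1 to 12 Comp UMIs each, and their counting intervals were wide. The AAA sections held 38 to 140 Comp UMIs each. Sections of a mouse are not independent, so this adds detail but no replicates.

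**Figure D2:**
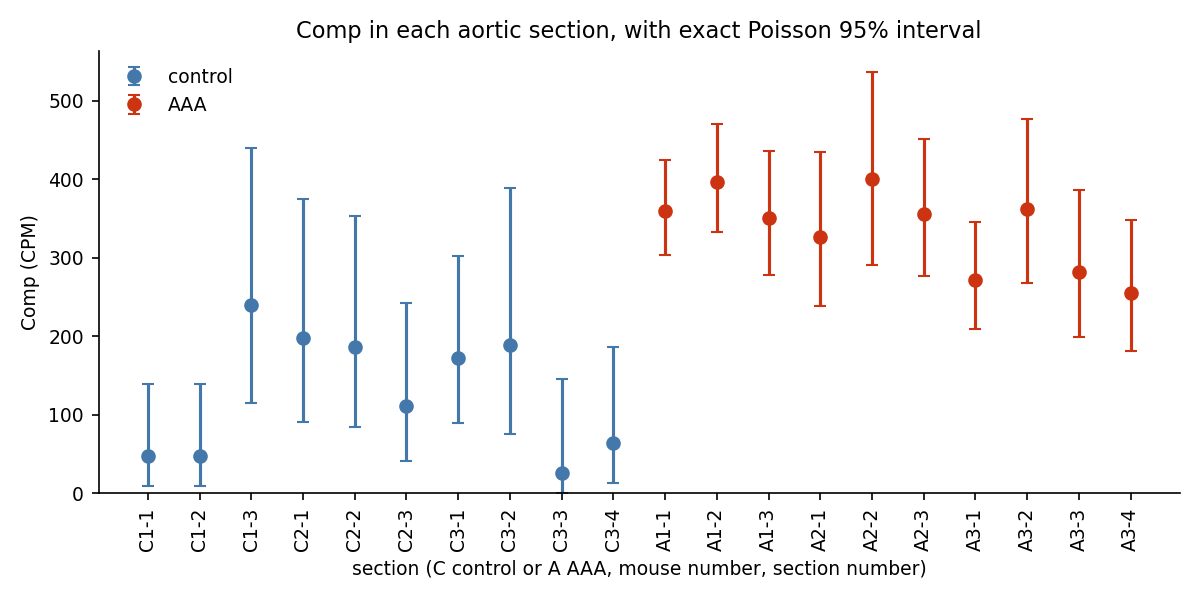
Comp level in CPM (y axis, from 0) in each of the 20 sections (x axis, C for control and A for AAA, then mouse and section number); whiskers are exact Poisson 95% intervals and cover counting error only. The AAA sections sit between 255 and 400 and the control sections between 26.2 and 240.

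Comp was also compared between hexagons of different depth. In hexagons with 30 or more UMIs the AAA mice had 407, 394 and 341 Comp CPM, and in those with 10 to 29 UMIs 279, 288 and 228. It was higher in the deeper of these in 3 of 3 AAA mice. Shallower hexagons held few Comp UMIs and no common order, with 186, 347 and 203 CPM at 5 to 9 UMIs and 385, 221 and 131 under 5, from 2 to 10 Comp UMIs each. The controls had 65.4, 152 and 148 at 30 or more UMIs and 130, 178 and 83.3 at 10 to 29, with no common direction. Restricted to hexagons with 75 or more genes, which left 2652, 925 and 898 hexagons in the AAA mice but 277, 124 and 89 in the controls, the log2 fold change of Comp was 2.14 ± 0.55 (SE), resting on 2, 4 and 0 Comp UMIs in the controls.

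Thbs1 was higher in AAA by a smaller margin. The controls had 101, 102 and 83.5 CPM and the AAA mice 119, 126 and 167. These groups did not overlap either, and AAA mouse 3 stood highest. The fitted log2 fold change was 0.54 ± 0.23 (SE).

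Thbs2 overlapped between the groups. It measured 53.7, 88.1 and 67.8 CPM in controls and 93.0, 63.0 and 119 in AAA mice. AAA mouse 2 lay below controls 2 and 3, and the log2 fold change was 0.45 ± 0.28 (SE). Thbs4 was near its detection limit on exons, with 0, 0 and 2 UMIs in the controls and 2, 1 and 3 in AAA. The ratio of its pooled shares, AAA over control, was 0.736 with an exact 95% counting interval from 0.132 to 7.46.

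The cartilage-type genes also overlapped between the groups. Cilp measured 41.8, 54.2 and 26.1 CPM in controls and 65.9, 22.5 and 30.1 in AAA mice, where mouse 1 alone stood above all controls. Its log2 fold change was 0.16 ± 0.42 (SE). Sox9 measured 59.7, 47.4 and 15.6 in controls and 53.3, 42.7 and 46.6 in AAA, a log2 fold change of 0.30 ± 0.37 (SE). The controls spread far more than the AAA mice, with 3 to 10 Sox9 UMIs each.

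The proteoglycans showed no shift that their counts could resolve. Vcan measured 17.9, 67.7 and 62.6 CPM in controls and 49.1, 42.7 and 42.1 in AAA, a log2 fold change of -0.11 ± 0.36 (SE). Acan held 1, 2 and 4 UMIs in controls and 15, 4 and 11 in AAA. The pooled Acan shares stood at a ratio of 1.05, AAA over control, with an exact 95% counting interval from 0.452 to 2.84.

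Counted together, 6 of the 8 genes passed the filter on low counts, Thbs4 and Acan being the 2 that did not. Of all 6315 genes tested, 2.52% passed an adjusted p of 0.05 and 1.28% did so as higher in AAA. In 8.79% of them all AAA mice lay above all controls. Comp was the only one of the 6 past the threshold, and 2 of the 6, Comp and Thbs1, had all AAA mice above all controls. Nothing is read from these counts, because the same contrast chose the genes.

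The members differed in where along the gene their molecules lay, a property the choice had not used. Counting whole genes, introns included, 56.6% of all UMIs in the sections lay outside exons. For Comp the share was 4.94% of 809 UMIs, for Thbs1 4.64% of 345 and for Sox9 6.92% of 130. Thbs2 had 21.4% of 294 and Cilp 21.5% of 144, still under the share of all genes. The order was opposite for the long genes, with 69.1% of 385 UMIs outside exons for Vcan, 77.8% of 167 for Acan and 93.1% of 116 for Thbs4. Most UMIs counted for Thbs4, Acan and Vcan were therefore outside exons. Exons of the longest coding transcript made up 7.40%, 11.94% and 14.25% of these genes, against 20.51% to 74.68% of the other members. Whether the UMIs outside exons came from transcripts of these genes was not tested.

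**Figure D3:**
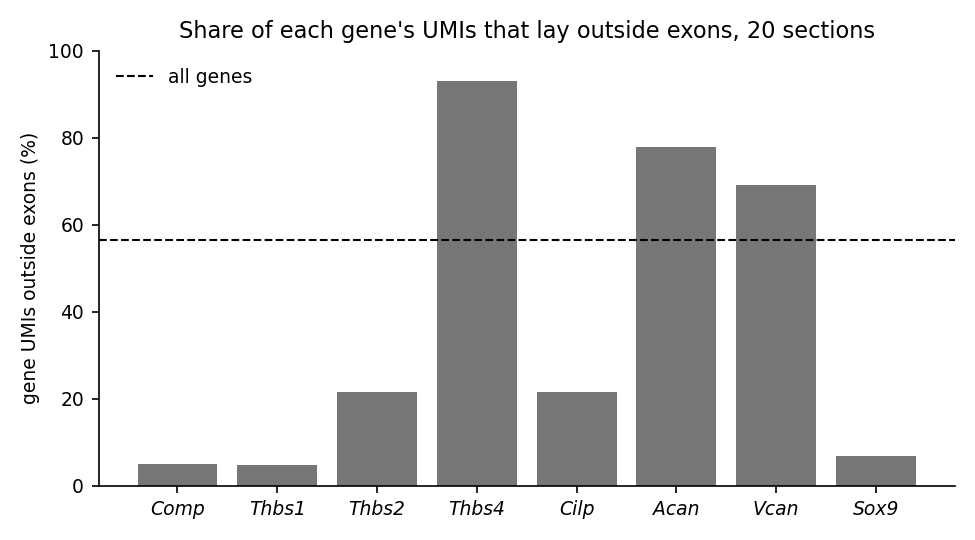
Percent of a gene's whole-gene UMIs that lay outside exons (y axis, 0 to 100%) for the 8 genes (x axis), over the 20 sections together; the dashed line is the share over all genes, 56.6%. Comp, Thbs1 and Sox9 lie below 10%, and Thbs4, Acan and Vcan lie above the line.

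Between the groups, the share of UMIs outside exons over all genes was 58.4% ± 3.74 in controls and 56.2% ± 0.513 in AAA (SD, n = 3 each; two-sided exact permutation test, p = 0.5, where 0.1 is the smallest p possible). No member had the 20 whole-gene UMIs in every mouse that a test of its own share required. On whole-gene UMIs all 8 genes could be fitted. The log2 fold changes, AAA over control, were 1.52 ± 0.19 for Comp, 0.53 ± 0.23 for Thbs1, 0.37 ± 0.24 for Thbs2 and -0.35 ± 0.33 for Thbs4 (SE). They were 0.15 ± 0.34 for Cilp, 0.14 ± 0.30 for Acan, 0.01 ± 0.20 for Vcan and 0.51 ± 0.37 for Sox9.

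Which part of the AAA wall carried Comp was asked next. Hexagons with 75 or more genes were put in the class whose markers most exceeded their expected share, and none of the 8 genes was among those markers. Comp was higher in collagen hexagons than in contractile (smooth muscle) hexagons. AAA mice 1, 2 and 3 had 718, 746 and 659 Comp CPM in collagen hexagons, from 88, 25 and 20 UMIs. In contractile hexagons they had 312, 230 and 127, from 18, 4 and 3 UMIs. The collagen value was the higher in 3 of 3 mice, with no overlap, and the log2 difference was 1.45 ± 0.30 (SE, adjusted p = 3.7e-05, edgeR quasi-likelihood test with mouse as a block over 666 genes outside the marker lists, of which 7.06% passed). With DESeq2 the difference was 1.54 but its adjusted p was 0.068, which does not pass the threshold. The genes were chosen with earlier results of these data known, so tests by class may not be independent of that choice.

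Macrophage hexagons lay between these. They had 377, 664 and 424 Comp CPM in AAA mice 1, 2 and 3. Against contractile hexagons the log2 difference was 0.78 ± 0.39 (SE, edgeR adjusted p = 0.275; 3.75% of the 666 genes passed), and against collagen hexagons -0.67 ± 0.28 (adjusted p = 0.202; 2.55% passed). Neither difference passed the threshold. Adipocyte hexagons had 330, unclassed hexagons 385 and red blood cell hexagons 420 Comp CPM with the AAA mice pooled, the last from 3 UMIs.

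The classes were also drawn over all hexagons with 10 or more UMIs, which holds more molecules but gives less certain classes. This was chosen after the data had been seen. Collagen hexagons of AAA mice 1, 2 and 3 then had 653, 678 and 498 Comp CPM and contractile hexagons 346, 81.8 and 328. The log2 difference was 1.05 ± 0.22 (SE, edgeR adjusted p = 1.2e-04 over 1275 genes, of which 6.82% passed; 1.14 and adjusted p = 0.097 with DESeq2). The collagen value was again the higher in 3 of 3 mice. The red blood cell hexagons of this set held 8 Comp UMIs in all, at 450, 884 and 0 CPM, so that in AAA mouse 2 their value, from 4 UMIs, lay above that of collagen hexagons.

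For Thbs1 and Thbs2 no difference between collagen and contractile hexagons passed the test. In the hexagons with 10 or more UMIs Thbs1 had 81.0, 73.3 and 116 CPM in collagen hexagons of AAA mice 1, 2 and 3 and 115, 164 and 214 in contractile ones, lower in collagen hexagons in 3 of 3 mice. Thbs2 had 130, 165 and 139 in collagen hexagons and 125, 54.5 and 99.7 in contractile ones, higher in collagen hexagons in 3 of 3 mice. In hexagons with 75 or more genes Thbs1 was at 73.4, 0 and 33.0 against 139, 288 and 84.5 CPM, again lower in collagen hexagons in 3 of 3 mice. Thbs2 was there at 138.6, 269 and 165 against 138.8, 0 and 127, so that it was higher in collagen hexagons in 2 of 3 mice and near equal in AAA mouse 1. Both genes fell under the count filter. Without the filter the log2 differences over hexagons with 10 or more UMIs, collagen over contractile, were -0.66 ± 0.43 for Thbs1 and 0.55 ± 0.44 for Thbs2 (SE, edgeR, adjusted p = 1 for both). Thbs2 was scarce in macrophage hexagons, with 18.9, 0 and 68.5 CPM from 3 UMIs in all. Its log2 difference, macrophage over collagen, was -2.56 ± 0.72 without the filter (edgeR adjusted p = 0.139).

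**Figure D4:**
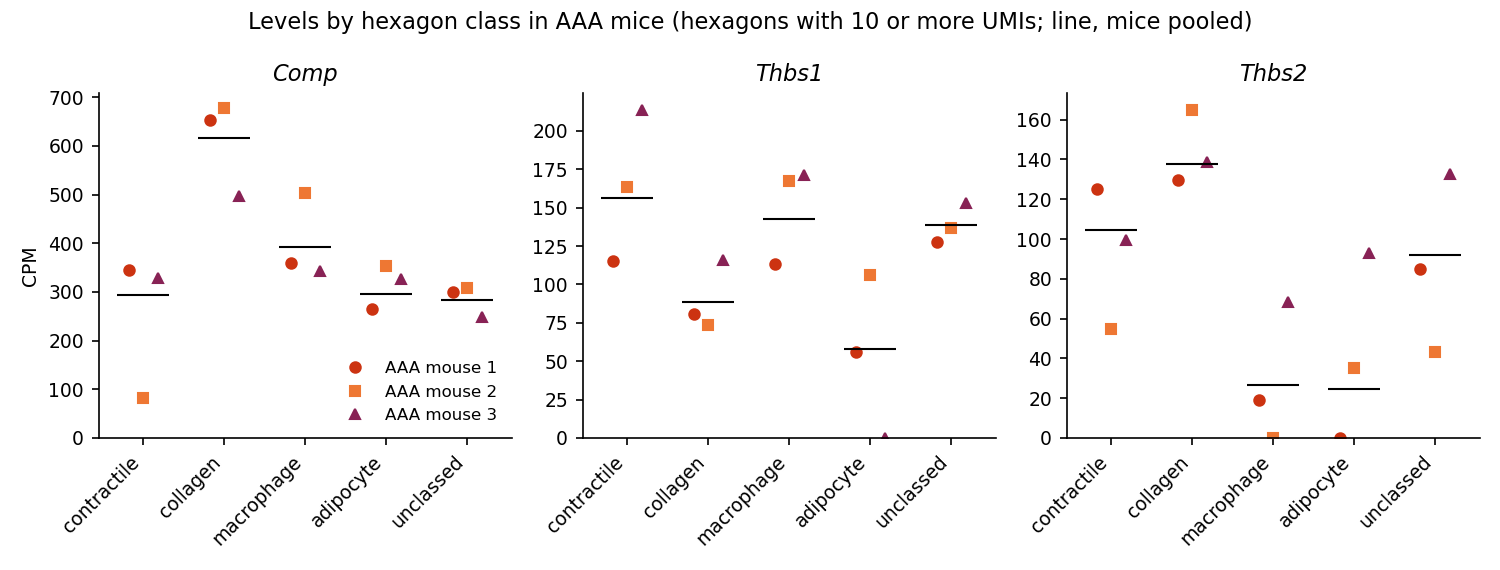
Level in CPM (y axis, each panel from 0) of Comp, Thbs1 and Thbs2 in 5 classes of hexagons with 10 or more UMIs (x axis) in AAA mice; symbols are the 3 mice and lines the mice pooled. Among the classes drawn, Comp is highest in the collagen class in each mouse (498 to 678), and Thbs1 is lower there than in the contractile class in each mouse; the red blood cell class, with 4, 4 and 0 Comp UMIs in mice 1, 2 and 3, is not drawn.

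The other members were too few by class for any comparison. In collagen hexagons with 75 or more genes the AAA mice together held 12 Cilp, 6 Vcan, 6 Sox9 and 1 Acan UMIs. In contractile hexagons they held 6 Cilp, 4 Vcan, 4 Sox9 and 0 Acan UMIs. Thbs4 was at 0 in both classes.

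Comp was compared between the groups within a class as a description. Contractile hexagons with 75 or more genes held 2 Comp UMIs among 32571 in controls and 25 among 98699 in AAA, or 61.4 and 253 CPM. Their ratio was 4.12 with an exact 95% counting interval from 1.03 to 35.9, which covers counting error only. Collagen hexagons were scarce in controls (23, against 1429 in AAA) and held 0 Comp UMIs among 2472, which allows up to 1214 CPM, so the AAA level of 713 CPM there is within what the control count allows. Among collagen hexagons with 10 or more UMIs the controls held 3 Comp UMIs among 15763 and the AAA mice 201 among 326207, or 190 and 616 CPM. That ratio was 3.24, with an exact 95% counting interval from 1.09 to 15.8. In contractile hexagons with 10 or more UMIs it was 5.99, with an interval from 2.22 to 22.7. Unclassed hexagons of this depth held 39 Comp UMIs in controls and 317 in AAA, a ratio of 2.02 (interval 1.45 to 2.90). Macrophage hexagons held 1 and 44, a ratio of 1.53 (0.26 to 61.8). Adipocyte hexagons held 0 and 36, where 0 allows up to 165 CPM, against 297 in AAA. With 75 or more genes the ratio was 1.56 (0.41 to 13.3) in unclassed and 0.77 (0.13 to 31.3) in macrophage hexagons.

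Comp was also placed by its distance from contractile hexagons in the AAA sections. Within contractile hexagons the AAA mice had 312, 230 and 127 Comp CPM, and in the band up to 45 µm away 373, 487 and 385. The surrounding band was thus higher than the contractile hexagons in 3 of 3 mice. At 45 to 100 µm the values were 402, 379 and 299, and at 100 to 200 µm they were 442, 245 and 319. Beyond 200 µm the values were 269, 336 and 235. The highest band was that of 100 to 200 µm in AAA mouse 1 and that up to 45 µm in AAA mice 2 and 3. Outside the contractile class, hexagons within 45 µm against all farther ones gave a log2 difference for Comp of 0.27 ± 0.14 (SE, edgeR adjusted p = 0.892 over 7018 genes), with the near value higher in 2 of 3 mice.

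Of the 6 tested members 0 passed the test of near against far in edgeR, 0 had an unadjusted p under 0.05, and 0 passed in DESeq2. Near over far, the log2 differences were -0.23 ± 0.23 for Thbs1, 0.38 ± 0.26 for Thbs2, -0.20 ± 0.40 for Cilp, 0.36 ± 0.37 for Vcan and -0.14 ± 0.38 for Sox9 (SE, edgeR adjusted p from 0.929 to 0.986). In this comparison 0.0712% of all genes passed. Thbs1 was lower near contractile hexagons in 3 of 3 mice, at 115, 97.4 and 134 CPM against 119, 126 and 177.

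The members seldom lay in the same hexagon. Among AAA hexagons with 10 or more UMIs, Comp was found in 603, Thbs1 in 229 and Thbs2 in 172. Comp and Thbs1 shared 10 hexagons, where 4.72 would follow from hexagon depth alone. Comp and Thbs2 shared 0, where 3.57 would follow. Counts this sparse are given without a reading.

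Across the 20 sections, the genes whose levels ran most like Comp (842 genes with 500 or more UMIs, Pearson r of log2 of the level plus 10) were Cygb (cytoglobin) at 0.885, Rps13 at 0.811, Igf1 at 0.793, H2-Eb1 at 0.779 and C1qb at 0.779. Within the 10 AAA sections alone the same r were 0.388, 0.727, 0.347, 0.464 and 0.202. For all but Rps13, r fell well below its value over both groups together. All sections lay on 1 array. The deposited matrix pooled the aorta samples listed in the labels, so these could not be told apart.

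The collagens that Comp binds were the pathway list with the most calls. Of 12 tested fibril partners 4 rose in AAA and none fell (edgeR, adjusted p under 0.05). Col1a1, which encodes a chain of type I collagen, rose by a log2 fold of 0.70 ± 0.13 (SE), Col14a1 by 0.52 ± 0.15 and Col1a2 by 0.51 ± 0.12; Col3a1 was the other. With DESeq2 2 of the 4 passed, Col1a1 and Col3a1. The list's median was 0.36, against 0.00 over all genes tested. The call for Col14a1 was lost without any 1 of the control mice (0.50 to 0.54) and without AAA mouse 1 (0.41). It was also lost with scaling by library size alone (0.51) and on whole-gene UMIs (0.35). The same held in hexagons with 75 or more genes (0.45) and with 10 or more UMIs (0.47). The call for Col1a2 was lost without AAA mouse 3 (0.36) and in hexagons with 75 or more genes (0.795). Col1a1, Col1a2 and Col3a1 are also 3 of the 8 collagen fibroblast markers summed above, so that sum and this list are not separate evidence.

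The receptors and growth factor partners of thrombospondins gave few calls. Of 14 tested receptors and partners 0 passed either way in edgeR and in DESeq2, with 4 at an unadjusted p under 0.05, and their median was 0.13. Calr, the calreticulin through which Thbs1 signals, stood at 0.28 ± 0.13 (SE), Itgb1 at -0.29 ± 0.13 and the scavenger receptor Cd36 at 0.18 ± 0.14. Of 13 genes of latent TGF-β and its response, 1 rose and 0 fell. That was Ltbp2, a protein of elastic microfibrils, at 0.71 ± 0.13. Its call was lost in hexagons with 75 or more genes (0.61, edgeR adjusted p = 0.282).

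The cartilage programme around the members was barely captured. Of its 21 genes 13 had fewer than 20 UMIs in all 6 mice and 9 were at 0 in controls, and 2 could be tested, of which 0 passed in edgeR or DESeq2 and 0 had an unadjusted p under 0.05. Col11a1 stood at -0.23 ± 0.36 (SE) and Sox5 at -0.13 ± 0.50. Col2a1, the defining collagen of hyaline cartilage, had 1 UMI in controls and 21 in AAA, and Col10a1, of hypertrophic cartilage, had 6 and 80. By mouse, Col10a1 had 1, 4 and 1 UMIs in controls 1, 2 and 3 and 28, 10 and 42 in AAA mice 1, 2 and 3. These 2 genes were named after their values had been seen, and neither passed the filter. Within the sections, controls 1, 2 and 3 held 167586, 147620 and 191724 exonic UMIs of all genes. AAA mice 1, 2 and 3 held 956560, 444755 and 665360. Whether this difference in depth accounts for the Col2a1 and Col10a1 counts was not tested. Of 5 tested genes of bone and calcification 1 rose, Mgp, an inhibitor of calcification, at 0.44 ± 0.11 (SE, edgeR). With DESeq2 0 passed. Mgp was not called without AAA mouse 3 (0.28) or in hexagons with 75 or more genes (0.49).

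Other matrix lists were mixed. Of 6 tendon and fibrocartilage genes tested 1 fell and 0 rose. It was Ogn (osteoglycin), at -0.61 ± 0.15 (SE). The call was lost with DESeq2, without control mouse 1 (-0.64) and without control mouse 3 (-0.49). It was also lost with no low-count filter (-0.50), on whole-gene UMIs (-0.52) and in hexagons with 75 or more genes (-0.65). Of 8 tested proteases and inhibitors acting on Comp, Acan and Vcan 2 rose, Timp1 at 0.96 ± 0.22 and Mmp2 at 0.66 ± 0.16, and 0 fell in edgeR. With DESeq2 0 of these 8 passed. The calls were also lost without control mouse 3 (0.99 for Timp1, 0.65 for Mmp2) and, for Mmp2, without control mouse 2 (0.60). In hexagons with 75 or more genes the Timp1 call was lost (1.24). Of 2 tested hyaluronan genes 0 passed in edgeR or DESeq2 and 1 had an unadjusted p under 0.05, with Cd44, the hyaluronan receptor, at 0.83 ± 0.28 and adjusted p = 0.123 (edgeR), and Hyal2 at 0.11 ± 0.36.

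Of 32 genes of these lists tested between collagen and contractile hexagons with 10 or more UMIs, 4 were higher and 4 lower in collagen hexagons (edgeR, adjusted p under 0.05, where 6.82% of all genes passed). Lower were Ccn2 (-1.24 ± 0.16, log2 ± SE) and Fn1, fibronectin (-0.63 ± 0.12), and both passed in every alternative run. Postn (-0.94 ± 0.23) was lower and Col14a1 (1.12 ± 0.22) higher, and both also passed in hexagons with 75 or more genes, but neither passed with DESeq2 or without AAA mouse 1 (-0.83 and 0.61). The other 4 calls were the less stable. Lrp1, an endocytic receptor for thrombospondins (0.96 ± 0.28), and Prelp (0.65 ± 0.21) did not pass in hexagons with 75 or more genes (edgeR adjusted p = 0.087 and 0.388), with DESeq2, or without AAA mouse 1 (0.38 and 0.53) or 3 (1.01 and 0.63). Col5a2 (1.09 ± 0.37) and Tnc (-1.12 ± 0.38) were under the filter in hexagons with 75 or more genes and did not pass with DESeq2. Tnc did not pass without AAA mouse 2 (-1.05) or 3 (-1.14) either.

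**Figure D5:**
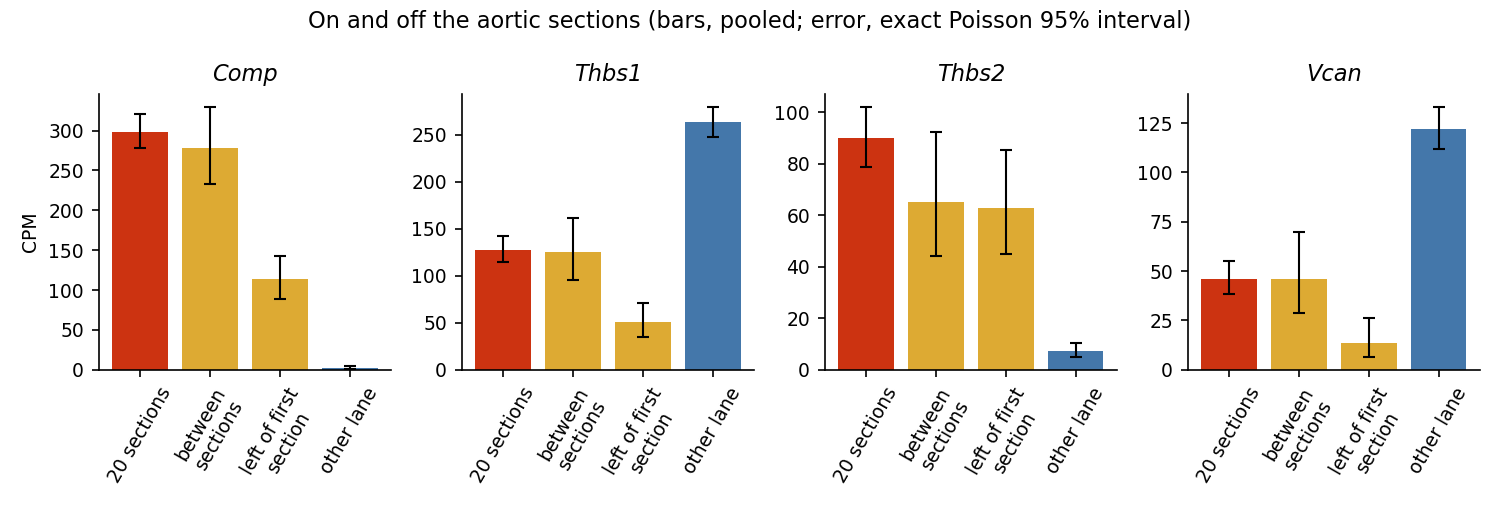
Level in CPM (y axis, bars from 0) of Comp, Thbs1, Thbs2 and Vcan within the 20 sections, between them, left of the first section and on the other lane of the array (x axis); whiskers are exact Poisson 95% intervals. Comp between sections (278.5) is near its value within them (298.8), and on the other lane it is at 2.45. Left of the first section Comp is at 113.4, within the range of the control mice (95.5 to 163). That area held 110400 exonic UMIs per mm2, more than the sections (53410) or the surface between them (14230). It is therefore no measure of stray RNA on bare surface.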

How the data were processed

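Barcode counts of Seq-Scope libraries from mouse aorta were analysed. Per the labels, the authors used STARsolo 2.7.5c on mm10 and Seurat 4. The authors deposited 1 matrix of raw UMI counts for all sections with separate columns for exonic and whole-gene counts. The annotation release is not given in the sources used here. Barcodes were assigned to sections by fitting their density to the section outlines in the study's published image (slope 1.002, residual SD 54.4 µm over 20 sections; 1294 µm in the opposite order).

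Before testing, the 8551 genes whose symbols begin with mt or Gm were dropped, following the study's methods. UMIs summed per mouse, or per mouse and hexagon class, entered the quasi-likelihood test of edgeR 4.0.16 after TMM scaling and filterByExpr, and p-values were adjusted by Benjamini-Hochberg over every gene tested. DESeq2 1.42.0 was the alternative, both in R 4.3.3. Other values were computed in Python 3.11.15 with SciPy 1.17.1. Hexagons had sides of 12 µm. A hexagon was classed as contractile, collagen, macrophage, adipocyte or red blood cell by the list with the highest ratio of UMIs to expectation, with at least 2 list UMIs. A hexagon can hold several cells, so classes are regions and not cell types. Intervals cover counting error only, and a count of 0 was given the limit of 3 counts. The members, the lists and the rule for named genes (all members, then up to 3 genes each way per list among those that passed, otherwise up to 3 of highest count) were chosen with earlier results of these data known. On simulated counts with known log2 changes of 1 and 2, edgeR found 58% and 93% of the altered genes for AAA against control (6315 genes), 73% and 98% for collagen against contractile hexagons (693 genes), and 43% and 83% for near against far (7018 genes).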

Additional observations from a re-analysis of the deposited data

Results flagged for a closer look

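Cilp in 1 AAA section lay apart from the other sections of its group. The first section of AAA mouse 1 had 103 Cilp CPM, from 40 UMIs, against 59.3 in the next highest of the 10 AAA sections, a gap of 0.506 of the whole range. Of 16 groups of sections examined this was the 1 set apart, and chance sets apart about 1 in 20.

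Counts outside the sections entered no comparison. Between the sections of lane 2, Comp reached 278.5 CPM and Thbs1 125.6, both above every control mouse. Right of the last section, where only 20070 exonic UMIs lay, Comp and Vcan were each at 199.3 CPM from 4 UMIs and Thbs2 at 249.1 from 5. The other lane of the array carries no outlined aortic section and held 4077414 exonic UMIs. There Thbs1 was at 263.9 CPM from 1076 UMIs, Vcan at 122.1 from 498 and Thbs4 at 21.34 from 87, all above every control mouse. Comp had 10 UMIs there, or 2.45 CPM.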

How the results depend on the processing

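Of 174 values recomputed for the 8 members, 169 kept their direction and side of the threshold or, for AAA over control, moved by less than 1 SD. Of 269 for the named list genes 208 did, 56 lost a call, 1 gained one (Itgb1, -1.32, in hexagons with 75 or more genes) and 4 changed sign. Those were Sox5, which turned to 0.17 in hexagons with 10 or more UMIs, 0.14 without control mouse 1 and 0.54 without control mouse 2 (-0.79 to 0.54 with 1 mouse left out), and Col11a1, which turned to 0.092 without control mouse 3 (-0.48 to 0.092 with 1 mouse left out); neither was called under any setting. Comp, AAA over control, ran from 1.29 to 2.14 on the log2 scale over all alternatives and from 1.29 to 1.65 with each mouse left out. Comp, collagen over contractile, lost its call with DESeq2 (1.54; 1.14 for hexagons of 10 or more UMIs). Near over far, Vcan turned to -0.041 at 100 µm and Cilp to 0.0099 without AAA mouse 3 (-0.18 to 0.0099 with 1 mouse left out); neither was called under any setting, and the cause was not tested. Control depth, 147620 to 191724 UMIs, limits all genes of low count.

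Genes higher and lower in AAA, 81 and 78, were 24 and 46 with DESeq2, 24 and 37 in hexagons with 75 or more genes, 130 higher with no filter and 42 lower on whole-gene UMIs. With 1 mouse left out they ran from 36 to 88 and from 32 to 90, lowest without control mouse 3 (50 and 45 without control mouse 1). List genes, 8 higher and 1 lower, were 3 and 0 with DESeq2, and 0 lower with no filter and on whole-gene UMIs; with 1 mouse left out 6 to 9 were higher and 0 to 1 lower.

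Collagen over contractile, 24 higher and 23 lower, gave 8 and 7 with overlapping classes, 3 and 5 with DESeq2, 13 and 7 with no filter, 14 higher without the mouse block, 9 lower on whole-gene UMIs, and 7 to 23 higher and 7 to 26 lower with 1 mouse left out. Macrophage over contractile, 9 and 16, gave 19 higher at 50 or more genes, 5 lower with overlapping classes, 15 and 6 on whole-gene UMIs, 2 and 1 with DESeq2, 2 and 4 with no filter, 5 and 8 without the block, and 3 to 9 higher and 1 to 14 lower with 1 mouse left out. Macrophage over collagen, 7 and 10, gave 13 and 6 at 50 or more genes, 4 lower with overlapping classes, 2 lower on whole-gene UMIs, 3 and 0 with DESeq2, 1 higher with no filter, 4 lower without the block, and 3 to 6 higher and 2 to 3 lower with 1 mouse left out.

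Near over far, 0 higher and 5 lower in edgeR (393 of 7018 genes at an unadjusted p under 0.05), gave 2 and 3 at 100 µm, 4 and 10 with contractile hexagons at 50 or more genes, 10 lower on whole-gene UMIs, 0 lower with DESeq2, 3 lower in hexagons with 10 or more UMIs (added after seeing the data), and 0 to 5 lower with 1 mouse left out. The 5 were Cfd, Fabp4, Hbb-bs, Hba-a2 and 2900060B14Rik, named after their values were seen. The difference in the share outside exons, AAA minus control, was -2.20 percentage points, -4.91 in hexagons with 75 or more genes, and from -3.58 to -0.070 with 1 mouse left out.

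A control and an AAA aorta of the same number were embedded together. With the number as a replicate block 107 genes were higher and 93 lower, Comp was at 1.44, and no call among the members changed. Deviations of same-numbered mice correlated at 0.032, 0.014 and 0.062 over 6315 genes, each above any crossed pair, which is a hint from the data only.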
